A study of Mus musculus with 2 samples.

Results

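The genes described here are 6 secreted or membrane-bound cytokines that T cells make: Ifng, Tnf, Lta, Ltb, Tgfb1 and Csf1. They were taken by symbol from the feature list of the deposited matrices, and all 6 were present among 32285 genes, each under a single identifier: ENSMUSG00000055170 for Ifng, ENSMUSG00000024401 for Tnf, ENSMUSG00000024402 for Lta, ENSMUSG00000024399 for Ltb, ENSMUSG00000002603 for Tgfb1 and ENSMUSG00000014599 for Csf1. The data are 10x Genomics 3' v3.1 single-cell RNA libraries of mouse CD8+ T cells from lymph node, with 1 library titled HC and 1 titled NC. The series sets CD8+ T cells that received electrical stimulation through their matrix against cells that did not; the labels do not say which library was stimulated, do not spell out HC or NC, and give no strain, age or culture time. With 1 library in each group no test between them was possible, so exact 95% intervals are given, and these cover counting error only.

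Interferon gamma, encoded by Ifng, is the cytokine by which activated CD8+ T cells raise antigen presentation in target cells and arm macrophages. Tumour necrosis factor (Tnf) and lymphotoxin alpha (Lta) are related ligands that engage the same receptors, while lymphotoxin beta (Ltb) anchors lymphotoxin alpha at the cell surface and is known for its part in building lymphoid tissue. Tgfb1 encodes a latent cytokine that restrains T cells after its release, and Csf1 the growth factor of macrophages. Engagement of the T cell receptor is known to induce Ifng, Tnf and Lta briefly, and Egr2 belongs to the early response genes of that signal; Mki67 marks cells that are dividing.

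The promoters of Ifng, Tnf and Ltb are shown because the first 2 genes were set apart by Egr2 in single cells while Ltb, the neighbour of Tnf, was not. Each run ends at the base before the start site and is written 5' to 3' on the gene's own strand, from RefSeq on GRCm38.p6, where promoter windows matched all 6 genes. The Ifng run lies at chr10:118440796-118441045 on the plus strand, the Tnf run at chr17:35202008-35202257 on the minus strand, and the Ltb run at chr17:35194257-35194438 on the plus strand, the last ending where the longest GENCODE transcript of Ltb begins. Capitals mark the NFAT core GGAAA on either strand and, in Ltb, the NF-kB letters that overlap it.
Ifng: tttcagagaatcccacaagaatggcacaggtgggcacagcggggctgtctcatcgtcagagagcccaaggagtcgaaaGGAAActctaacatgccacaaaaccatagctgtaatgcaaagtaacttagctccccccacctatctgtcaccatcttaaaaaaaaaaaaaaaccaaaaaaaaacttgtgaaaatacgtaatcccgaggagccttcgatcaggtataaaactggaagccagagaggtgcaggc
Tnf: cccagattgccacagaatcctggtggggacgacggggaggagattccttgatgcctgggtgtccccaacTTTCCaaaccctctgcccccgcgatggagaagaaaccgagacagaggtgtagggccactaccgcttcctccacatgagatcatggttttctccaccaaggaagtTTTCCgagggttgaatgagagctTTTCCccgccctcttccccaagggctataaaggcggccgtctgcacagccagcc
Ltb: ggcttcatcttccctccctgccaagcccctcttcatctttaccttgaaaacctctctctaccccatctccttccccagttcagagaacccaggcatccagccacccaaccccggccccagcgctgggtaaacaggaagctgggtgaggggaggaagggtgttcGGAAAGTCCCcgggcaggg

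Within the full window of 250 bases before the RefSeq start site, GGAAA on either strand was found 3 times in Tnf and Csf1, 2 times in Lta, and 1 time in Ifng and Ltb, but not in Tgfb1. Of the 250 bases of the Lta window, 227 lie inside the span of a longer annotated transcript of that gene. GGAAA is a common run of letters, present in 55.6% of 32851 such windows. GGGNNTTTC, letters taken from the NF-kB motif, was found in Ltb and in Csf1, against 3.72% of all windows, each time with a match that overlaps a GGAAA; Ltb held a further match downstream of the run printed here. The EGR motif GCGNGGGCG was found in Tgfb1 alone among the 6 genes, against 4.70% of all windows, and the AP-1 motif TGANTCA in none of the 6, against 6.75%. These matches describe letters in a window and locate no bound site. On GRCm38, Ifng is a gene of 4 exons at chr10:118441046-118445892. Ltb (chr17:35194439-35196320), Tnf (chr17:35199381-35202007) and Lta (chr17:35203165-35205351) lie side by side within 10913 bases, 3060 bases apart between Ltb and Tnf and 1157 bases apart between Tnf and Lta. Tgfb1 lies at chr7:25687002-25705077 and Csf1 at chr3:107741048-107760469.

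Cells with at least 500 genes, at least 1000 UMIs (unique molecular identifiers, each marking 1 captured RNA molecule) and at most 10% of UMIs from mitochondrial genes were kept: 13617 of 15495 HC barcodes and 13641 of 14798 NC barcodes. The kept cells held 114430972 UMIs in HC and 115789139 UMIs in NC, with medians of 7425 UMIs per HC cell and 6898 UMIs per NC cell. Barcodes over the mitochondrial limit made up 11.5% of HC and 7.41% of NC, and 64 barcode sequences occurred in both libraries, 49 of them among kept cells. The labelled cell type was checked against its markers. Cd8a or Cd8b1 was found in 98.3% of HC cells and 98.4% of NC cells, while Cd4 had 2 UMIs in HC and 1 UMI in NC. Summed B cell markers stood at 14.5 CPM in HC and 14.7 CPM in NC, but Cd79b, found in 10.1% of HC cells and 8.77% of NC cells, gave most of that. C1qa of macrophages was at 0 in both libraries and Lyz2, another myeloid gene, had 0 UMIs in HC and 416 UMIs in NC in 0.103% of cells. Trdc, a gene of gamma-delta T cells, was in 42.8% of HC cells and 48.2% of NC cells. The other genes of gamma-delta T cells looked at were rare: Tcrg-C1 was in 0.323% of HC and 0.293% of NC cells. Trgv2 was in 0.353% of HC and 0.315% of NC cells, so Trdc alone does not mark gamma-delta T cells here.

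The effector cytokines Ifng and Tnf were lower in HC than in NC, Lta and Ltb were lower by smaller ratios, and Tgfb1 was about level. Levels are CPM, the UMIs of a gene per 1000000 UMIs of all kept cells of a library. Ifng had 208 UMIs in HC, or 1.82 CPM (1.58 to 2.08), against 913 UMIs in NC, or 7.89 CPM (7.38 to 8.41). Ifng was thus 4.34-fold lower in HC (3.73 to 5.07), a log2 ratio of HC over NC of -2.12. Tnf had 479 UMIs and 4.19 CPM in HC (3.82 to 4.58), against 826 UMIs and 7.13 CPM in NC (6.66 to 7.64), and was 1.70-fold lower in HC (1.52 to 1.91).

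Lta stood at 7.19 CPM in HC (6.71 to 7.70) and 10.4 CPM in NC (9.80 to 11.0), 1.44-fold lower in HC (1.32 to 1.58). Ltb was read in nearly every cell, with 683 CPM in HC (678 to 687) and 829 CPM in NC (823 to 834), a log2 ratio of -0.28 (-0.29 to -0.27). The HC values of these genes lay below the NC values with intervals that did not overlap. Tgfb1, by contrast, stood at 78.7 CPM in HC (77.1 to 80.3) and 80.3 CPM in NC (78.7 to 81.9), and its log2 ratio of -0.03 had an interval that held 0 (-0.07 to 0.01). Csf1 was close to the limit of what these libraries can count, with 38 UMIs or 0.332 CPM in HC and 72 UMIs or 0.622 CPM in NC, a log2 ratio of -0.90 (-1.51 to -0.32).

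Of the 5 members with at least 5 CPM in either library, 2 (Ifng and Tnf) were at least 1.5-fold lower in HC, where 1.47% of all 8704 genes at that level were, and 0 were at least 1.5-fold higher, where 1.93% of all genes were. Ifng and Tnf reached 5 CPM in NC, where they were higher, and not in HC, so this count describes them and supports nothing. The median log2 ratio of all those genes was -0.03. Csf1, under 5 CPM, was not counted.

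**Figure D1:**
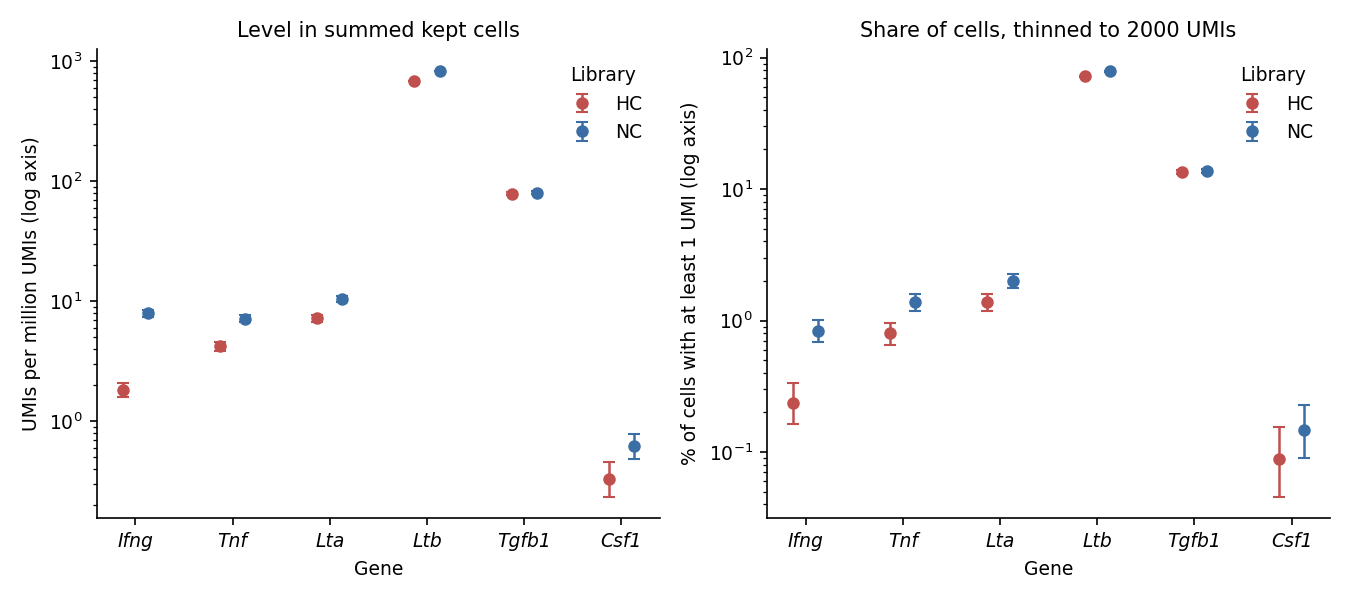
Level of each gene as UMIs per 1000000 UMIs in the summed kept cells (left) and share of cells with at least 1 UMI after each cell was thinned to 2000 UMIs (right), both on log axes, with HC left of NC; points are the single library of each group and bars are exact 95% counting intervals. Ifng, at 1.82 CPM in HC and 7.89 CPM in NC, shows the widest gap, and the points of Tgfb1 nearly coincide.

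The share of cells with a UMI followed the same order. To hold depth equal, each cell was thinned at random to 2000 UMIs, which left 13523 HC cells and 13508 NC cells and left out 94 HC cells and 133 NC cells. Ifng was then found in 32 HC cells, or 0.237% (0.162 to 0.334), and in 113 NC cells, or 0.837% (0.690 to 1.005). Tnf was found in 0.799% of HC cells (0.656 to 0.963) and 1.38% of NC cells (1.19 to 1.59), and Lta in 1.38% of HC cells (1.19 to 1.59) and 2.01% of NC cells (1.78 to 2.26). All 3 of these shares were lower in HC. Without thinning, Ifng was in 0.940% of HC cells and 2.34% of NC cells, Tnf in 3.004% of HC cells and 5.04% of NC cells, and Lta in 5.43% of HC cells and 7.02% of NC cells. Ltb was in 72.2% of thinned HC cells and 78.9% of thinned NC cells (97.0% of HC and 97.9% of NC cells unthinned), and Tgfb1 in 13.5% of HC and 13.7% of NC cells (43.8% of HC and 42.8% of NC cells unthinned).

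Free RNA can place a UMI in a cell that does not express the gene, and few cells here could serve to measure it. Cells with at least 3 UMIs of 4 B cell markers numbered 24 in HC (median 14540 UMIs, against 7420 in the other HC cells) and 37 in NC (median 12872 UMIs, against 6888 in the other NC cells). Ifng was in 0 of the 24 HC cells, which by a limit of 3 counts allows a share of up to 12.5%, and in 1 of the 37 NC cells (2.70%, 0.0684 to 14.2). Tnf was in 0 of the 24 HC and 0 of the 37 NC cells, which by the same limit allows up to 12.5% in HC and 8.11% in NC. These limits are wider than the shares in the CD8+ cells, so the part of free RNA in single UMIs of Ifng, Tnf and Lta could not be measured.

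Ifng differed from Tnf and Lta in how its UMIs were spread over cells. At 2000 UMIs per cell, a cell with Ifng held 1.44 UMIs of it on average in HC and 1.62 UMIs in NC. Without thinning, such a cell held 1.62 UMIs in HC and 2.86 UMIs in NC. In HC, 6 cells had 6 or more UMIs of Ifng, and they held 28.8% of its UMIs, whereas in NC 23 cells did so and held 53.0%. The richest cell had 13 UMIs of Ifng in HC and 83 UMIs in NC. Of the 6 HC cells, 4 carried Egr2, 5 Mki67, 6 Gzmb and 5 Il2ra. Of the 23 NC cells, 8 carried Egr2, 14 Mki67, 18 Gzmb, 19 Il2ra and 19 Xcl1. Their median depth was 13522.5 UMIs in HC and 14368 UMIs in NC, above the 7397 UMIs of HC cells and 6840.5 UMIs of NC cells without Ifng, and the part of depth in this was not tested.

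Because few cells carried much of the Ifng signal, its UMIs were not independent draws, and the counting interval of its level is too narrow for that reason. With at most 1 UMI of Ifng counted per cell, the log2 ratio of HC over NC was -1.30 in place of -2.12, still past 1.5-fold. Tnf and Lta were carried by single UMIs: 87.5% of HC cells and 85.7% of NC cells with Tnf had 1, and 1 HC cell and 3 NC cells had 6 or more. For Lta, 91.1% of HC cells and 84.5% of NC cells that had it held 1 UMI.

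**Figure D2:**
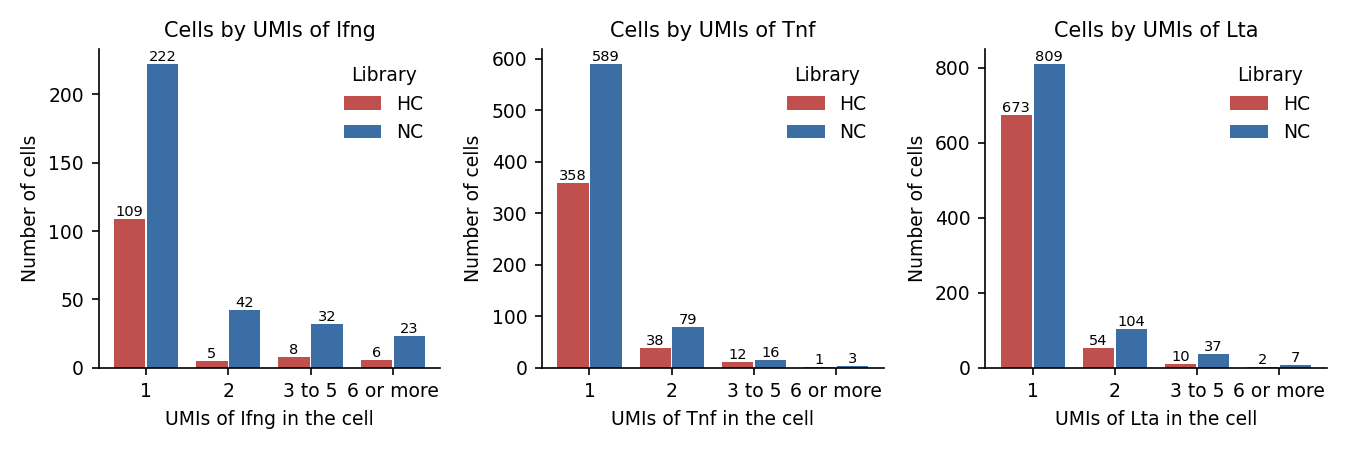
Number of cells, on the vertical axis, by how many UMIs of Ifng, Tnf or Lta they held, with HC bars left of NC bars and the count above each bar. Cells with 6 or more UMIs of Ifng numbered 6 in HC and 23 in NC.

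Cells with a UMI of Egr2 held more Ifng, Tnf and Lta than cells without it in both libraries. Egr2 was found in 279 HC cells (2.05%) and 538 NC cells (3.94%). In HC, Ifng stood at 19.1 CPM in cells with Egr2 and 1.35 CPM in cells without it, a 14.2-fold difference (10.3 to 19.4). In NC, Ifng stood at 52.3 CPM in cells with Egr2 and 5.38 CPM in cells without it, 9.71-fold (8.45 to 11.1). These levels rest on few cells: Ifng was in 13 of the 279 HC cells and 52 of the 538 NC cells with Egr2. Leaving out the richest NC cell brought the NC log2 ratio of cells with over cells without Egr2 to 2.85, against 3.28 with it, and counting at most 1 UMI of Ifng per cell gave 2.05 in HC and 1.79 in NC.

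Tnf followed the same direction, at 29.4 CPM in HC cells with Egr2 and 3.50 CPM in HC cells without it (8.39-fold, 6.59 to 10.6), and at 26.5 CPM in NC cells with Egr2 and 6.04 CPM in NC cells without it (4.39-fold, 3.68 to 5.22). Lta stood at 22.8 CPM with Egr2 and 6.77 CPM without it in HC (3.36-fold), and at 30.3 CPM with Egr2 and 9.26 CPM without it in NC (3.27-fold). Ifng, Tnf and Lta were thus at least 1.5-fold higher with Egr2 in both libraries, 3 of 5 members, where 4.06% of all genes in HC and 3.69% in NC were. No member was at least 1.5-fold lower, where 2.92% of genes in HC and 1.98% in NC were. In HC, Ifng and Tnf reached 5 CPM in the cells with Egr2 and not in those without it, so nothing is read from the count.

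Ltb and Tgfb1 differed far less by Egr2. Ltb stood at 811 CPM with Egr2 and 679 CPM without it in HC, and at 867 CPM with Egr2 and 827 CPM without it in NC, log2 ratios of 0.26 and 0.07. Tgfb1 stood at 113 CPM with Egr2 and 77.8 CPM without it in HC (log2 ratio 0.54), and at 109 CPM with Egr2 and 78.7 CPM without it in NC (log2 ratio 0.47). Csf1 rested on 1 UMI in HC cells with Egr2 and 10 UMIs in NC cells with Egr2.

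Cells with Egr2 were also deeper, with medians of 9521 UMIs with and 7388.5 UMIs without it in HC, and 10063.5 UMIs with and 6804 UMIs without it in NC. At 2000 UMIs per cell, the order held: Ifng was in 2.53% of HC cells with Egr2 and 0.189% of those without it, and in 4.84% of NC cells with Egr2 and 0.671% of those without it. Tnf was in 6.14% of thinned HC cells with Egr2 and 0.687% without it, and in 5.21% of NC cells with Egr2 and 1.22% without it. Where presence of Egr2 itself was taken from thinned counts, the log2 ratio of Ifng in HC was 0.91, against 3.83 with presence from all UMIs. The value of 0.91 rested on 2 UMIs of Ifng in 71 HC cells with Egr2, at 3.41 CPM (0.413 to 12.3). That interval held the 1.81 CPM of HC cells without Egr2, so no difference is shown there.

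Over the number of Egr2 UMIs, the level of Tnf in HC was 3.50 CPM at 0 UMIs (13338 cells), 22.1 CPM at 1 (219 cells), 44.3 CPM at 2 (44 cells) and 79.3 CPM at 3 or more (16 cells). The HC intervals at 1 (16.5 to 29.0 CPM), 2 (27.4 to 67.7 CPM) and 3 or more (45.3 to 129 CPM) overlapped between neighbouring steps. Among HC cells with Egr2, only those at 1 and at 3 or more, the thinly filled step, stood apart. In NC the level of Tnf was 6.04 CPM at 0 UMIs (13103 cells), 16.5 CPM at 1 (423 cells), 66.0 CPM at 2 (77 cells) and 49.2 CPM at 3 or more (38 cells). The NC step from 2 to 3 or more lay within counting error, since the intervals ran from 50.7 to 84.5 CPM and from 30.8 to 74.5 CPM.

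The level of Ifng in CPM did not follow such an order. In HC it stood at 1.35 CPM at 0 UMIs of Egr2, 23.4 CPM at 1, 4.22 CPM at 2 and 4.96 CPM at 3 or more, with 55 UMIs of Ifng in the cells with 1 UMI of Egr2 and 2 UMIs and 1 UMI in the last 2 steps. In NC it stood at 5.38, 36.8, 136 and 38.0 CPM over the same steps, and the richest NC cell, with 83 UMIs of Ifng, had 1 UMI of Egr2. The share of thinned NC cells with Ifng was 0.671%, 4.03%, 7.79% and 7.89% over these steps, on 3 cells in the last. Among thinned HC cells the share was 0.189%, 3.23%, 0% and 0%. Lta stood at 6.77, 21.7, 25.3 and 29.8 CPM in HC and at 9.26, 23.6, 57.6 and 42.5 CPM in NC. In HC the intervals of Lta from 1 UMI of Egr2 on all overlapped (16.1 to 28.5, 13.1 to 44.2 and 10.9 to 64.8 CPM). In NC those at 1 (19.5 to 28.4 CPM) and 2 UMIs of Egr2 (43.4 to 75.0 CPM) did not.

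**Figure D3:**
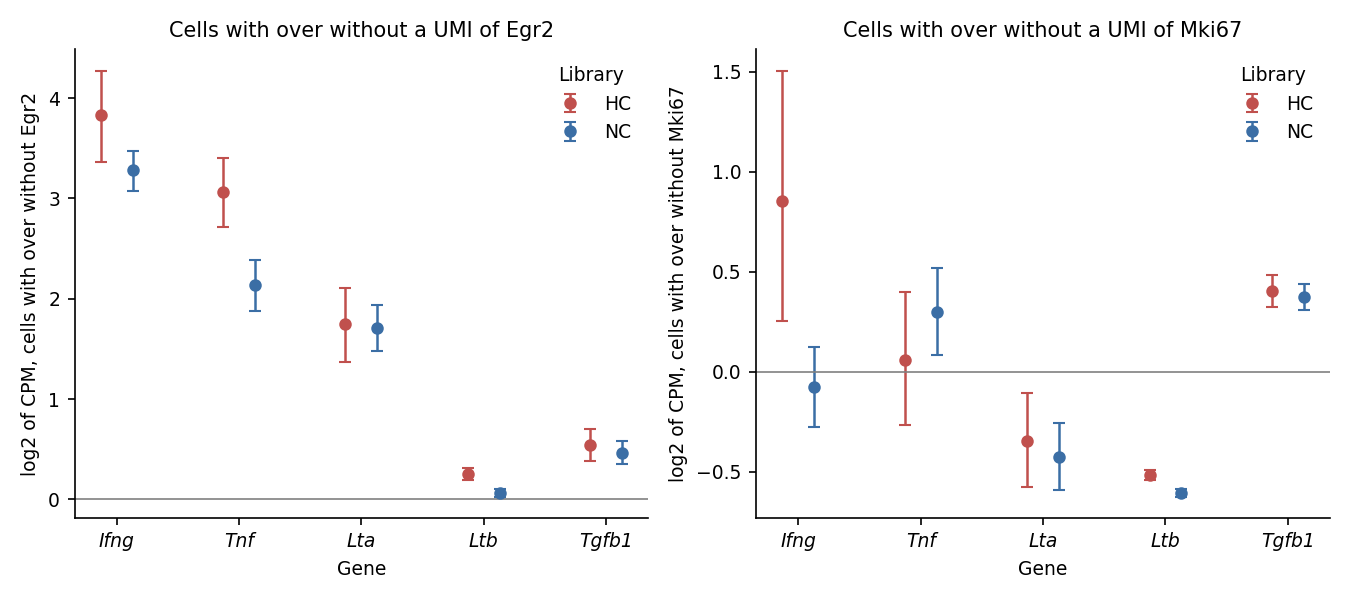
Log2 ratio of CPM in cells with over cells without a UMI of Egr2 (left) or of Mki67 (right), per gene, with HC left of NC; bars are exact 95% counting intervals and the grey line marks no difference. Ifng, Tnf and Lta lie well above the line for Egr2, and Ltb lies below it for Mki67 in both libraries.

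Mki67 was found in 69.2% of HC cells and 53.4% of NC cells, and it split the family another way: Ltb and Lta were lower and Tgfb1 higher in cells with Mki67. Ltb stood at 627 CPM with Mki67 and 897 CPM without it in HC, 1.43-fold lower with it (1.41 to 1.45), and at 703 CPM with and 1069 CPM without it in NC, 1.52-fold lower (1.502 to 1.54). Lta stood at 6.82 CPM with and 8.65 CPM without Mki67 in HC (1.27-fold lower, 1.08 to 1.49), and at 9.29 CPM with and 12.5 CPM without it in NC (1.34-fold lower, 1.19 to 1.51). The intervals of its shares in thinned cells overlapped. These shares were 1.30% with (1.08 to 1.55) and 1.55% without Mki67 (1.19 to 1.97) in HC. In NC they were 1.83% with (1.53 to 2.16) and 2.21% without it (1.86 to 2.61). Tgfb1 stood at 82.8 CPM with and 62.6 CPM without Mki67 in HC, and at 87.1 CPM with and 67.2 CPM without it in NC. The directions of these 3 genes were shared by the libraries.

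Ifng was 1.81-fold higher in HC cells with Mki67 (2.001 CPM) than in HC cells without it (1.11 CPM), with an interval of 1.19 to 2.84, while in NC it stood at 7.74 CPM with and 8.16 CPM without Mki67, within counting error. The HC ratio rested on 26 UMIs of Ifng in the cells without Mki67, and turned to a log2 ratio of -0.024 where presence of Mki67 was taken from thinned counts. Tnf stood at 4.22 CPM with and 4.05 CPM without Mki67 in HC, and at 7.62 CPM with and 6.20 CPM without it in NC. With at least 5 CPM in cells with or without Mki67, 3 members could be counted in HC (Lta, Ltb and Tgfb1) and 5 in NC. Of these, 0 were at least 1.5-fold higher with Mki67 in HC, where 11.7% of all genes were, and 0 in NC, where 10.5% were. Those at least 1.5-fold lower numbered 0 in HC, where 3.89% were, and 1 in NC (Ltb), where 4.33% were. Near the background, these counts say nothing of the family as a whole.

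The lower level of Ltb with Mki67 was graded. From 0 to 1 or 2, 3 to 5, and 6 or more UMIs of Mki67, Ltb stood at 897, 704, 623 and 600 CPM in HC and at 1069, 840, 705 and 626 CPM in NC. Tgfb1 over the same steps stood at 62.6, 77.1, 84.2 and 84.5 CPM in HC and at 67.2, 77.7, 84.2 and 93.6 CPM in NC. Ltb was thus lower at each step in both libraries, and the libraries lay closest to each other in the cells with most Mki67. Depth differed too, with median UMIs of 8774 with and 5172.5 without Mki67 in HC and 9367 with and 5703 without it in NC, and its part in this was not tested. In cells thinned to 2000 UMIs, Ltb was found in 68.8% with and 79.7% without Mki67 in HC and in 73.5% with and 85.2% without it in NC.

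**Figure D4:**
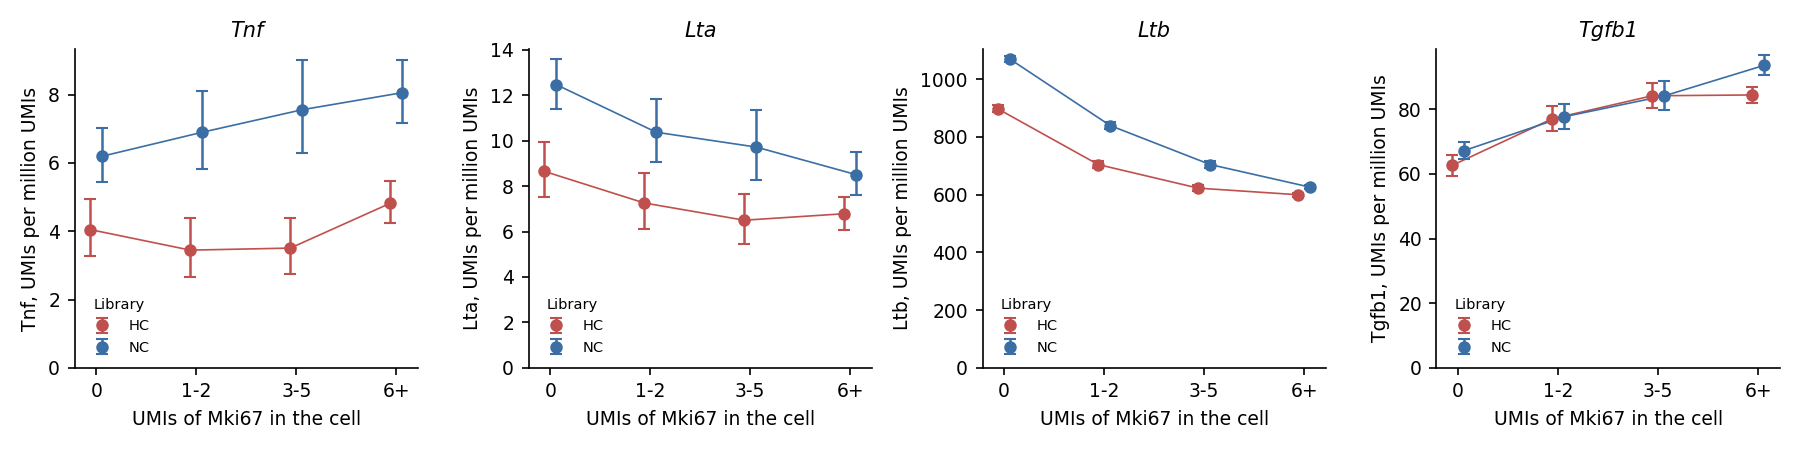
UMIs per 1000000 UMIs of Tnf, Lta, Ltb and Tgfb1 in cells grouped by their UMIs of Mki67, for HC and NC; points are summed cells of 1 library and bars exact 95% counting intervals. Ltb is lower at each of the 4 steps in both libraries and Tgfb1 is higher in the last step than in the first.

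Since the libraries differed in how many cells carried Mki67 or Egr2, HC was compared with NC within cells of like status. Ifng was lower in HC in each: the log2 ratio of HC over NC was -1.45 in cells with Egr2 (-1.88 to -1.04), -1.999 without it (-2.27 to -1.74), -1.95 with Mki67 (-2.20 to -1.71) and -2.88 without it (-3.52 to -2.30). The ratio with Egr2 rested on 13 HC cells and 52 NC cells with Ifng, among them the NC cell with 83 UMIs of it. At 2000 UMIs per cell, Ifng was in 2.53% of HC cells with Egr2 (1.02 to 5.14) and 4.84% of NC cells with Egr2 (3.19 to 7.01). Those intervals overlapped. Lta stood at log2 ratios of -0.41 with Egr2, -0.45 without it, -0.45 with Mki67 and -0.53 without it. Tnf was lower in HC in cells without Egr2 (-0.79, -0.97 to -0.60), with Mki67 (-0.85) and without Mki67 (-0.61). In cells with Egr2, however, Tnf stood at 29.4 CPM in HC and 26.5 CPM in NC, a log2 ratio of 0.15 whose interval held 0 (-0.24 to 0.53). The difference between the Tnf ratios with and without Egr2 was not tested.

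Counts of members past 1.5-fold are given beside those of all genes within the same cells as a description. Outside the cells with Egr2, Tnf reached 5 CPM in NC and not in HC, and so did Ifng, so nothing is read from these counts. In cells with Egr2, Ifng alone of 5 members was at least 1.5-fold lower in HC, where 5.92% of genes were, and 0 were higher, where 6.27% were. In cells without Egr2, Ifng and Tnf were lower, where 1.26% of genes were, and 0 higher, where 1.92% were. In cells with Mki67 the same 2 were lower, where 1.54% of genes were, and 0 higher, where 1.78% were. In cells without Mki67 Ifng and Tnf were again lower, where 1.92% of genes were, and 0 higher, where 1.94% were.

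Weighting the 4 classes of NC cells (with or without Mki67, with or without Egr2) by their share of UMIs in HC left Ifng at 6.52 CPM, Tnf at 6.74 CPM and Lta at 9.40 CPM in NC. Against these values Ifng was 3.59-fold, Tnf 1.61-fold and Lta 1.31-fold lower in HC, in place of 4.34-fold, 1.70-fold and 1.44-fold. Ltb was 1.14-fold lower in HC, in place of 1.21-fold. These classes rest on detection of single UMIs, and the part of the mix of cells in the differences was not tested. For a summed level, fewer cells that make a cytokine and fewer molecules in each such cell cannot be told apart.

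**Figure D5:**
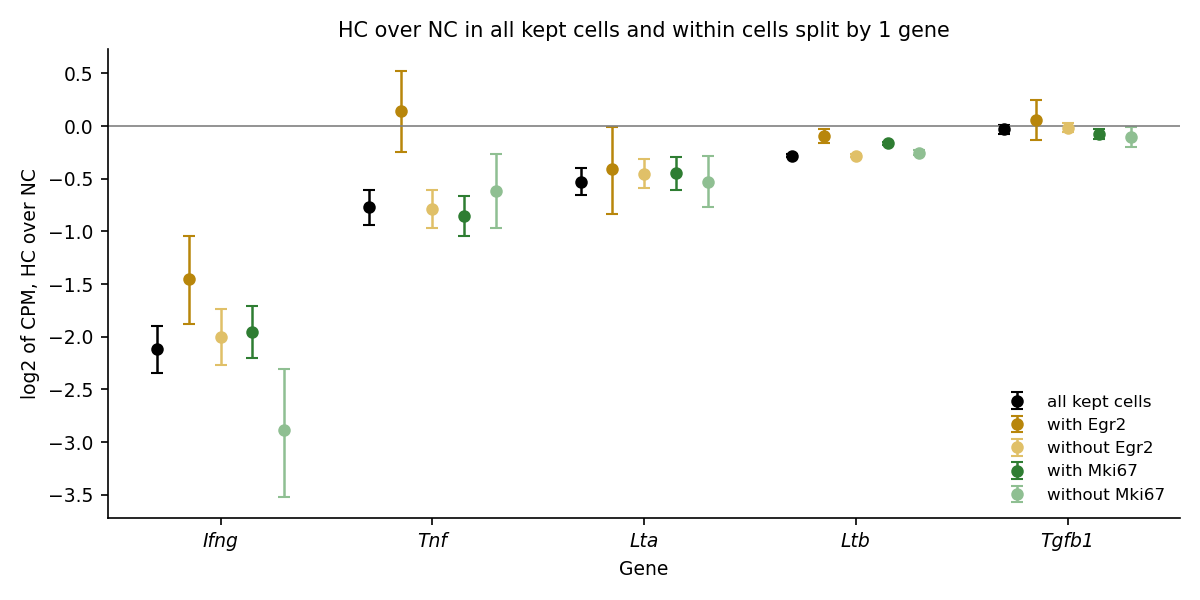
Log2 ratio of CPM in HC over NC for all kept cells and within cells with or without a UMI of Egr2 or of Mki67; bars are exact 95% counting intervals and the grey line marks no difference. Ifng lies below the line in each class of cells, whereas Tnf in cells with Egr2 lies at 0.15 with an interval across the line.

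Ifng, Tnf and Lta were found in the same cells more often than the product of their shares gives. Among unthinned cells with Ifng, Tnf was in 15 of 128 in HC (11.7%, 6.71 to 18.6) and in 53 of 319 in NC (16.6%, 12.7 to 21.2), against 2.92% of HC cells and 4.76% of NC cells without Ifng. Lta was in 20 of the 128 HC cells with Ifng (15.6%) and 61 of the 319 NC cells (19.1%), against 5.33% of HC and 6.73% of NC cells without Ifng. Among cells with Tnf, Lta was in 56 of 409 in HC (13.7%) and 129 of 687 in NC (18.8%), against 5.17% of HC and 6.39% of NC cells without Tnf. The number of cells with both genes of a pair was thus 3.90 times the product of the shares in HC and 3.30 times in NC for Ifng with Tnf, 2.88 and 2.73 times for Ifng with Lta, and 2.52 and 2.68 times for Tnf with Lta.

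Deeper cells show more genes, so the pairs were counted again at 2000 UMIs per cell. Tnf was then in 3 of 32 HC cells with Ifng (9.38%, 1.98 to 25.0) and 11 of 113 NC cells (9.73%, 4.96 to 16.8), against 0.778% of HC and 1.31% of NC cells without Ifng. The ratio to the product was 11.7 in HC and 7.07 in NC for Ifng with Tnf, 4.54 and 3.53 for Ifng with Lta, and 4.71 and 2.41 for Tnf with Lta, on 2 to 11 cells a pair. At equal depth the counting intervals of these ratios lay above 1 for each pair and library except Ifng with Lta in HC, which rested on 2 cells. The ratios of Ltb with Ifng and with Tnf were 0.996 and 1.01 in HC and 0.987 and 0.988 in NC, and those with Lta were 1.12 in HC and 1.07 in NC. Ltb was in 72.2% of thinned HC cells and 78.9% of thinned NC cells, which sets a ceiling not far above 1. Its ratios can therefore not be compared with those of the rarer genes, and no lack of excess is read from them. The share of Tgfb1 was 20.4% in thinned HC cells with Lta (14.9 to 26.9) and 13.4% in those without it, and 22.1% in thinned NC cells with Lta (17.3 to 27.6) and 13.5% in those without it.

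Few cells carried all of Ifng, Tnf and Lta. At least 1 of the 3 was found in 8.75% of unthinned HC cells (8.28 to 9.24) and 12.8% of NC cells (12.2 to 13.4), and at least 2 in 77 HC cells (0.565%) and 195 NC cells (1.43%). All 3 were in 7 HC cells and 24 NC cells. Among cells with Egr2, at least 1 was found in 100 of 279 in HC (35.8%) and 210 of 538 in NC (39.0%), against 8.19% of HC cells and 11.7% of NC cells without Egr2. Within cells without Egr2 the pair of Ifng and Tnf was 3.66 times the product in HC and 3.15 times in NC, and within cells with Egr2 1.43 times in HC and 1.49 times in NC, on 4 HC cells and 16 NC cells with both. At 2000 UMIs per cell the ratio was 4.66 in HC cells with Egr2 (2 cells with both) and 5.82 in those without it (1 cell), and 2.95 in NC cells with Egr2 (4 cells) and 6.61 in those without it (7 cells), too few cells to set an order.

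By Gzmb, Il2ra, Tcf7, Xcl1, Tbx21 and Pdcd1 the CPM ratios of Ifng were farther from 1 than those of Tnf and Lta in both libraries. Xcl1, Tbx21 and Pdcd1 went with more of all 3 beyond counting error in both libraries, and Il2ra did so in NC. By the shares of thinned cells, Ifng was also farthest from 1 of the 3, except by Tbx21 in NC. In thinned NC cells, Ifng was in 1.197% with and 0.771% without Tbx21. Tnf was in 2.49% with and 1.17% without it there, and Lta in 2.92% with and 1.84% without it. By Il2ra, Ifng was in 0.511% of thinned HC cells with and 0.140% without it. In thinned NC cells these shares were 1.95% and 0.607%. Ifng was higher in cells with Gzmb, the gene of the cytotoxic protease granzyme B, at 2.36 CPM with and 0.327 CPM without it in HC (7.22-fold) and at 10.8 CPM with and 3.80 CPM without it in NC (2.85-fold). Tnf did not differ by Gzmb beyond counting error, at 4.21 CPM with and 4.12 CPM without it in HC and 7.18 CPM with and 7.06 CPM without it in NC. Ltb was lower in cells with Gzmb, by log2 ratios of -0.35 in HC and -0.34 in NC. Ifng was likewise higher in cells with Il2ra, the alpha chain of the interleukin-2 receptor, 4.63-fold in HC and 7.13-fold in NC, against 1.13-fold in HC and 1.54-fold in NC for Tnf and 1.16-fold in HC and 1.58-fold in NC for Lta. In cells with Tbx21, the gene of the transcription factor T-bet, Ifng was higher by log2 ratios of 1.58 in HC and 1.54 in NC, Tnf by 1.30 in HC and 1.03 in NC, and Lta by 0.40 in HC and 0.64 in NC.

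In cells with Tcf7, a transcription factor gene of naive and memory T cells, Ifng was 3.94-fold lower in HC and 3.64-fold lower in NC, whereas Ltb was higher by log2 ratios of 0.24 in HC and 0.29 in NC. By Tcf7, Tnf stood at log2 ratios of -0.10 in HC and -0.30 in NC, and Lta at 0.08 in HC and -0.44 in NC. The depths differed little here in HC, with medians of 7443 UMIs with and 7397 UMIs without Tcf7, and more in NC, with 7181 UMIs with and 5938.5 UMIs without it. For each of the other partner genes the cells with the gene were deeper in both libraries, as for Gzmb with medians of 8529 UMIs with and 5752 UMIs without it in HC and 8233 UMIs with and 6078.5 UMIs without it in NC, and the part of depth in these levels was not tested. Pdcd1, which encodes the inhibitory receptor PD-1, went with higher Ifng (3.94-fold in HC, 2.83-fold in NC), higher Tnf (2.16-fold in HC, 2.004-fold in NC) and higher Lta (2.02-fold in HC, 1.85-fold in NC).

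Nr4a1, an early response gene of the T cell receptor, went with higher Tnf in both libraries, 6.42-fold in HC and 4.85-fold in NC, and with higher Lta, 2.81-fold in HC and 3.22-fold in NC. Ifng by Nr4a1 stood at 2.03 CPM with and 1.81 CPM without it in HC, within counting error, and at 30.7 CPM with and 6.12 CPM without it in NC, 5.02-fold. Bnip3, a gene induced by low oxygen, went with higher Ifng (2.08-fold in HC, 1.72-fold in NC) and with Tnf at log2 ratios of -0.16 in HC and -0.40 in NC. Xcl1, a chemokine gene, went with higher Ifng, 3.09-fold in HC and 5.92-fold in NC. It also went with higher Tnf, 2.39-fold in HC and 2.07-fold in NC, and higher Lta, 2.22-fold in HC and 1.94-fold in NC. In thinned HC cells, Ifng was in 0.764% with and 0.192% without Xcl1. In thinned NC cells, these shares were 1.58% and 0.466%. By Gzma, the gene of granzyme A, Ifng stood at 2.49 CPM with and 1.74 CPM without it in HC and at 3.99 CPM with and 8.09 CPM without it in NC. The HC difference lay within counting error (log2 ratio 0.52, -0.11 to 1.10), while the NC log2 ratio was -1.02 (-1.68 to -0.42). In thinned cells, Ifng was in 0.187% with and 0.241% without Gzma in HC, and in 0.613% with and 0.845% without it in NC.

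The genes most like each member were ranked by the smaller of the libraries' log2 ratios of CPM in cells with over cells without the member, over 2 libraries. For Ifng these were the chemokine genes Ccl3 (4.42), Ccl4 (3.89) and Xcl1 (2.90), then Rgs16 (2.45), a regulator of G protein signalling, and Prf1 (2.38), which encodes perforin. For Tnf they were Ccl4 (3.02), Ccl3 (2.84), Nr4a1 (2.68), Egr3 (2.43) and Rgs16 (2.15), and for Lta Ccl3 (2.69), Ccl4 (2.63), Nr4a1 (1.83), Xcl1 (1.82) and Nr4a2 (1.69). Ccl3 and Ccl4 stood among the leading genes of all 3. In cells with Ifng, Ccl3 stood at 135 CPM in HC and 410 CPM in NC, against 3.37 CPM in HC and 19.1 CPM in NC without Ifng.

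The leading genes of Ltb reached no more than 0.58 (Xdh), followed by Trim12a (0.56), Cwc25 (0.55), Tmem126b (0.51) and Socs1 (0.49), the lowest leading value of the 6 members. Unthinned, however, Ltb was in 13215 of 13617 HC cells and 13355 of 13641 NC cells. The few cells without it were shallow, with medians of 5419.5 UMIs in HC and 4258 UMIs in NC. Its low value can thus not be compared with those of the rarer members. For Tgfb1 the leading genes were Xcl1 (1.15), Hivep3 (0.80), Ccl4 (0.79), Srm (0.69) and Nolc1 (0.68). For Csf1, found in 35 HC cells and 62 NC cells, they were Xcl1 (2.08), Tnfrsf9 (1.55) and Tnfrsf4 (1.35), both costimulatory receptors, Snhg15 (1.19) and Bcl2a1b (0.99). The median over all eligible genes lay between -0.11 and 0.03 for the 6 members, and these values are descriptions of 2 libraries with no test.

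Gene lists around the 6 cytokines were counted at 5 CPM or more, where 1.47% of all genes were at least 1.5-fold lower and 1.93% higher in HC, so that a count of 0 in a short list is near the background and says nothing of the list. Some genes under that level are named as well, chosen after their values were seen. Of 10 receptor genes, 5 had at least 5 CPM, 0 passed 1.5-fold in either direction, and their median log2 ratio was 0.05. Ifngr1, the binding chain of the interferon gamma receptor, stood at 224 CPM in HC and 192 CPM in NC (log2 ratio 0.22), and Tnfrsf1b, a receptor of Tnf, at 7.10 CPM in HC and 8.51 CPM in NC (-0.26). Tgfbr2 stood at a log2 ratio of 0.06 and Tgfbr1 at 0.05, and Csf1r had 1 UMI in HC and 2 UMIs in NC. Tgfbr3, a co-receptor of TGF-beta that lay under 5 CPM, stood at 2.79 CPM in HC and 1.77 CPM in NC (0.65, 0.40 to 0.92).

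Among 14 other ligands of the Tnf superfamily, 2 reached 5 CPM. Tnfsf8, the ligand of CD30, stood at 20.9 CPM in HC and 36.2 CPM in NC (log2 ratio -0.80), past 1.5-fold, and Tnfsf10, the gene of the ligand TRAIL, at 6.97 CPM in HC and 9.85 CPM in NC (-0.50). Of 15 other secreted cytokines 2 reached 5 CPM: Mif, a cytokine that acts on macrophages, stood at 851 CPM in HC and 553 CPM in NC (0.62), past 1.5-fold and opposite in direction to Ifng and Tnf, and Il16 at 79.1 CPM in HC and 84.0 CPM in NC (-0.09). Il2 lay under that level, with 2.59 CPM in HC and 2.42 CPM in NC.

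Of 10 genes known to drive Ifng, 8 were measured at 5 CPM or more, 0 passed 1.5-fold, 4 had ratios above 0 and 4 below, and their median log2 ratio was 0.02. Runx3, a transcription factor of cytotoxic T cells, stood at 281 CPM in HC and 218 CPM in NC (0.37) and Il12rb2, a chain of the interleukin-12 receptor, at 46.2 CPM in HC and 37.9 CPM in NC (0.28). Il12rb1 and Irf1 each stood at -0.15. Tbx21 stood at 21.8 CPM in HC and 22.5 CPM in NC. Eomes, a transcription factor related to T-bet that lay under 5 CPM, stood at 1.66 CPM in HC and 3.14 CPM in NC (log2 ratio -0.92, -1.18 to -0.66).

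Of 15 factors that bind cytokine promoters after receptor engagement, 13 were measured, 0 passed 1.5-fold, and the median log2 ratio was 0.01. Among those 13, the ratios farthest from 0 were those of the NF-kB subunit genes Relb (16.1 CPM in HC, 23.4 CPM in NC, log2 ratio -0.53), Nfkb2 (-0.33) and Rel (-0.30), and of Nfatc1 (-0.25), which encodes an NFAT factor. The AP-1 genes Fos and Fosb lay under 5 CPM, Fos at 0.961 CPM in HC and 1.61 CPM in NC (-0.74, -1.09 to -0.39) and Fosb at 1.16 CPM in HC and 1.58 CPM in NC (-0.44, -0.78 to -0.11). Of 7 genes of NF-kB feedback, 0 passed 1.5-fold and 6 had ratios below 0, with a median of -0.16. The share of all genes below 0 was not counted, and their median was -0.03, so nothing is read from the 6. Nfkbia, the inhibitor that holds NF-kB in the cytoplasm, stood at 73.7 CPM in HC and 95.3 CPM in NC (-0.37), Nfkbie at -0.28, Traf1 at -0.26 and Nfkbib at -0.16.

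Proteins that bind cytokine messenger RNA and set its decay formed another list. All 9 were measured, 0 passed 1.5-fold, and 8 had ratios below 0, with a median of -0.20 against -0.03 for all genes. With that median, more of all genes lay below 0 than above it. Their share was not counted, so nothing is read from the 8. Zfp36l1, a decay factor, stood at 105 CPM in HC and 142 CPM in NC (-0.43), Elavl1, which encodes the stabilising protein HuR, at 66.7 CPM in HC and 81.4 CPM in NC (-0.29), Zfp36 at -0.28 and Zc3h12a, the gene of the RNase Regnase-1, at -0.23.

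Of 12 genes that release or activate the ligands, 5 were measured, 0 passed 1.5-fold, and the median was -0.14. Adam17, the protease that sheds Tnf, stood at 20.1 CPM in HC and 17.5 CPM in NC (0.20), Nrros at -0.33, Furin, which cleaves the Tgfb1 precursor, at -0.15 and Adam10 at -0.14. Under 5 CPM, Lrrc32, whose protein holds latent TGF-beta at the cell surface, stood at 2.19 CPM in HC and 0.993 CPM in NC (1.14, 0.82 to 1.47), and the latent TGF-beta binding protein genes Ltbp3 and Ltbp4 stood at log2 ratios of 0.67 (0.14 to 1.203) and 0.75 (0.24 to 1.28), on 80 and 85 UMIs in HC and 51 UMIs each in NC. Of 8 genes of TGF-beta isoforms and the SMAD pathway, 6 were measured, 0 passed 1.5-fold, and the median was -0.06, with Smad2 at -0.23, Ski at -0.17, Smad3 at 0.12 and Skil at -0.10.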

How the data were processed

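For each library the authors deposited a matrix of raw UMI counts. Cell Ranger 6.1.2 is named per the file headers, and Cell Ranger 5.0.0, Seurat 3.2.3 and mm10, with no role or order, per the submitters' processing notes. No source used here gives the annotation release or the rule for keeping barcodes. Cells were kept at 500 genes, 1000 UMIs and 10% mitochondrial UMIs; doublets were not removed and no caller was run. A count of 0 allows up to 0.0262 CPM in HC and 0.0259 CPM in NC (3 counts).

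CPM carry exact Poisson intervals, shares Clopper-Pearson intervals and ratios conditional binomial intervals, all at 95%. No pseudocount was added. TMM factors (edgeR 4.0.16) and size factors (DESeq2 1.42.0, R 4.3.3) served scaling alternatives only. The summing and ratio steps were tested on simulated data. Python 3.11.15, numpy 2.4.6, scipy 1.17.1, pandas 2.3.3 and matplotlib 3.10.9 were used. Gene positions came from GENCODE vM21 on GRCm38 and promoter windows from RefSeq; annotated genes overlapping Ifng, Lta and Ltb were not among the counted features.

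Members and gene lists were chosen with earlier results of these data known. Named genes are the 6 members, up to 4 genes per list with the largest log2 ratio in size among those at 5 CPM or more, 9 partner genes, and the 5 genes most like each member, with at least 20 CPM and 20 UMIs in cells with it. Il2, Il16, Csf1r, Tbx21 and the list genes under 5 CPM, and the cell type markers, are named beside these. Alternatives that count at most 1 UMI per cell or leave out the richest Ifng cell were chosen after seeing the data.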

Additional observations from a re-analysis of the deposited data

Results flagged for a closer look

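In 4 cases the log2 ratio of a gene had opposite signs in a set of cells and its counterpart, split by Egr2 or by Mki67. In each of these 4 the interval of at least 1 of the values held 0, so none of them shows a gene moving in opposite ways. The differences were not tested, since there was 1 library per group. Tnf in HC over NC stood at a log2 ratio of 0.15 in cells with Egr2 (-0.24 to 0.53) and -0.79 in cells without it. Tgfb1 in HC over NC stood at 0.058 in cells with Egr2 and -0.017 in cells without it, both with intervals that held 0. Ifng in cells with over cells without Mki67 stood at 0.85 in HC and -0.076 in NC (-0.27 to 0.12). Csf1 in cells with over cells without Egr2 stood at -0.0096 in HC (-5.35 to 2.56), on 1 UMI in the cells with Egr2, and at 1.52 in NC, on 10 UMIs. Outside these 4 cases, Ltb had opposite signs with both intervals clear of 0. In cells with over cells without Xcl1 it stood at 0.08 in HC (0.04 to 0.11) and -0.20 in NC (-0.22 to -0.18). Among cells without Mki67, Ltb in HC over NC stood at 0.18 with Egr2 (0.05 to 0.31) and -0.27 without Egr2 (-0.29 to -0.24). These intervals cover counting error only, and these differences were not tested either.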

How the results depend on the processing

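No paired analysis was possible because there was 1 library per group and no test. Under the alternatives of scaling, cell weight, depth and cell filter or class, the log2 ratio of HC over NC ran from -2.88 to -1.30 for Ifng over 12 alternatives and, over 11 alternatives each, from -0.79 to -0.61 for Tnf, -0.64 to -0.36 for Lta, -0.32 to 0.0018 for Ltb, -0.10 to 0.05 for Tgfb1 and -1.10 to -0.66 for Csf1. Ifng, Tnf and Csf1 stayed past 1.5-fold in each, Lta passed it in 2 (stricter cell filter, and without cells over 3 times the median UMIs) and Ltb in 0. Without cells with Mki67 the ratios were -2.88 for Ifng, -0.25 for Ltb and -0.10 for Tgfb1. With at most 1 UMI per cell they were -1.30 for Ifng, -0.36 for Lta, 0.0018 for Ltb and 0.046 for Tgfb1; nearly all cells held Ltb, so that count could not differ. Ltb also stood at -0.27 (TMM), -0.31 (cells weighing the same), -0.32 (thinned), -0.30 (stricter filter) and -0.32 (without cells over 3 times the median). The log2 ratio of the share of cells with Ltb was -0.013 unthinned and -0.052 at 4000 UMIs, and that of Ifng with Tnf over the product in NC was 1.72 unthinned.

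With presence of Egr2 taken from thinned counts, the log2 ratios of cells with over cells without it were in HC 0.91 for Ifng, 3.48 for Tnf and 0.44 for Ltb, and in NC 2.74 for Ifng, 1.79 for Tnf, 1.31 for Lta, 0.15 for Ltb, 0.29 for Tgfb1 and 0.18 for Csf1. With presence of Mki67 so taken, they were in HC -0.024 for Ifng (reversed), -0.11 for Lta, -0.26 for Ltb and 0.15 for Tgfb1, and in NC 0.033 for Tnf, -0.44 for Ltb and 0.26 for Tgfb1. For Ifng by Egr2, at most 1 UMI per cell gave 2.05 in HC and 1.79 in NC, and leaving out the richest cell 2.85 in NC; by Mki67 in NC that cell moved it to -0.29. Genes at least 1.5-fold lower in HC numbered 1334 and higher 1860 with no minimum level, and at 2-fold 16 and 38. The counts with no minimum level take in genes under 5 CPM and are not comparable with the shares given at 5 CPM or more. The causes were not tested. Counts of 1 to 3 UMIs or cells limit Csf1, the pairs, and Ifng in HC with presence of Egr2 from thinned counts.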
